A study of Mus musculus with 4 samples.

Results

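Receptors for the constant part of IgG let tissue macrophages recognise antibody-coated material. The 6 genes described here, of 28692 in the UMI table, were the activating receptors Fcgr1 (CD64), Fcgr3 (CD16) and Fcgr4 (CD16-2), the inhibitory receptor Fcgr2b (CD32b), the signalling chain Fcer1g and the related gene Fcrls. They were taken by name as a receptor family, with earlier results of these data known. In macrophages the activating receptors depend on the chain encoded by Fcer1g, which carries an activation motif (ITAM) that recruits the kinase Syk. The product of Fcgr2b carries an inhibitory motif (ITIM) that recruits the phosphatase SHIP and dampens the same signal, so the balance between these receptors sets how strongly a macrophage answers immune complexes. Fcrls encodes an Fc receptor-like scavenger protein that is best known as a gene of microglia.

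The cells came from the colon of 4 male C57/Bl6N mice that were gavaged 5 days a week for about 6 months. The mice DEP 11 and DEP 13 received 12 µg of diesel exhaust particles in 200 µL of PBS per gavage, and the mice PBS 2 and PBS 3 received PBS alone. Lamina propria cells were sorted as CD11b+ and positive for Ly6C or CD64, and each mouse was run as a separate 10x 3′ library. CD64 is the protein of Fcgr1, so the sort selected on 1 of the 6 genes described here, and a level of Fcgr1 in these cells says nothing about its level in colon cells outside the gate. With 2 mice per group, the p-values of the gene tests rest on a spread between these 4 animals that is shared across genes. They do not rest on the spread of a single gene alone, so a very small value does not measure how alike the mice were for that gene.

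Of 6954 barcodes in the table, 4771 held at least 1000 UMIs (unique molecular identifiers, which count captured RNA molecules), at 675 to 1582 barcodes per mouse and 4357153 to 10063287 UMIs per mouse. Of these, 228 carried markers of T, B or plasma cells and were set apart, which left 4543 myeloid barcodes with a median of 5838 UMIs. Doublets were called in 0.759% to 3.26% of the barcodes of a mouse, most often in DEP 13, and 36 barcode sequences of 6915 occurred in more than 1 mouse. Levels are given in CPM, the UMIs of a gene per 1000000 UMIs in the summed barcodes of a mouse. Because 3′ libraries are not scaled to a gene's length or capture, levels were compared between cells and mice but not between genes.

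Monocytes that enter the colon wall are rich in Ly6c2, and mature macrophages there make the complement subunit C1qa. A gene was called high in a barcode at 2 or more UMIs and at least 5 per 10000 UMIs of that barcode. By this rule 113 barcodes were high in Ly6c2 alone (the Ly6c2 range, to which DEP 11 gave 50 barcodes, DEP 13 gave 19, PBS 2 gave 16 and PBS 3 gave 28) and 3697 in C1qa alone (the C1qa range, with 508 to 1228 per mouse). A further 423 barcodes were high in both genes and 310 in neither. These are ranges of 2 levels, not cell types, and 98 and 80 barcodes lay within 20% below and above the limit for Ly6c2. The 8 monocyte genes, Ly6c2 included, summed to 8494 to 9110 CPM in the Ly6c2 range and to 1210 to 1582 in the C1qa range. The 8 macrophage genes, C1qa included, summed to 10410 to 17610 and 42270 to 50810.

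RNA released from broken cells enters every droplet. C1qa was at a mean of 1142 CPM in barcodes set apart as T cells against 311 in the Ly6c2 range. A limit of 5 per 10000 for C1qa was therefore low against that background. Whether this C1qa was free RNA or came from a macrophage in the same droplet was not tested. A higher limit of 20 per 10000 for C1qa, chosen after the data were seen, is given beside the first where the ranges are compared. It moved the Ly6c2 range to 483 barcodes and the C1qa range to 2733. Barcodes set apart as T or plasma cells, and the 1614 barcodes under 500 UMIs, served as the background for each Fc receptor gene. In sums of barcodes, fewer cells with a gene and less RNA of that gene per cell cannot be told apart.

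On the mouse genome build mm10, Fcgr2b lies at chr1:170958617-170976547, Fcgr4 at chr1:171018920-171029761, Fcgr3 at chr1:171051174-171064935 and Fcer1g at chr1:171229572-171234365, all in the same part of chromosome 1. Fcgr4 is on the plus strand and the other 3 are on the minus strand. Fcgr1 (chr3:96282909-96293969) and Fcrls (chr3:87250758-87263738) lie on chromosome 3, on the minus strand. Reads of a 3′ library come from the end of a transcript, so stretches shared between genes matter there. Of the 31-base stretches in the last 500 bases of the Fcgr2b transcripts, 5.1% also occurred in Fcgr3, and of those of Fcgr3 0.521% also occurred in Fcgr2b. The share was 3.4% for Fcgr4, in genes outside this family, and 0.0% for Fcgr1, Fcer1g and Fcrls. An antisense gene, Gm38204, overlaps Fcgr2b and held 4 UMIs in all.

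The sequences just upstream of 3 of the genes are shown because these genes spanned the measured patterns: Fcgr4 rose steeply with C1qa, Fcgr1 is the gene of the sort marker, and Fcer1g stayed nearly level. Each is the 250 bases before the RefSeq transcript start (build GRCm38.p6, the same coordinates as mm10), from 5′ to 3′ on the strand of the gene. Capitals mark GAGGAA on either strand (TTCCTC on the strand shown), a form of the site bound by PU.1, a transcription factor of myeloid cells. Shorter forms of the site were not counted.
Fcgr1, chr3:96293970-96294219, minus strand: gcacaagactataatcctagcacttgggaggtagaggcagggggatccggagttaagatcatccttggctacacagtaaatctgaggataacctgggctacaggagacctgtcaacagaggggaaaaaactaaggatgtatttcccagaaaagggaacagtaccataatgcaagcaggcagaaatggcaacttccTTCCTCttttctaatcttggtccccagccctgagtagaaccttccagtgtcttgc
Fcgr4, chr1:171018676-171018925, plus strand: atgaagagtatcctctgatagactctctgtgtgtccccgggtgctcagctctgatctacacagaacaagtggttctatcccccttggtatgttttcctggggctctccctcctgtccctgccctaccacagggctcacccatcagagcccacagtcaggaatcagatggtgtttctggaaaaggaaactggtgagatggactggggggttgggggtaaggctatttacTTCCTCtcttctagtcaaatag
Fcer1g, chr1:171234350-171234599, minus strand: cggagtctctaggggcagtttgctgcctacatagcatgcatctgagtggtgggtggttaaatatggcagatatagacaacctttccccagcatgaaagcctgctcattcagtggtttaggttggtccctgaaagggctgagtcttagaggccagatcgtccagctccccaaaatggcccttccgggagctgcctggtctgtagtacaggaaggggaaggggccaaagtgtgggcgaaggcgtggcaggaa
GAGGAA occurred once before Fcgr1 and once before Fcgr4 and did not occur in the window of Fcer1g. The windows of Fcgr3 and Fcrls also held it and that of Fcgr2b did not. Of the 250 bases, 136 for Fcrls and 203 for Fcgr2b lie in annotated exons, and the windows of Fcgr3 lie inside the annotated gene. These windows are thus not upstream sequence alone. Of 32851 mouse windows of this length, 23.25% held GAGGAA, so a match is common. TTCNNNGAA, a site form of STAT factors searched on both strands, occurred only before Fcgr1 among the 6 genes and in 7.02% of all windows, and TTGCNNAAT, a form of C/EBP sites, occurred before none of the 6 and in 2.113% of all.

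The first comparison asked how the receptors differed along the path from Ly6c2 to C1qa. Fcrls, Fcgr4, Fcgr2b and Fcgr3 were higher in the C1qa range than in the Ly6c2 range, in that order of fold change, whereas Fcer1g differed little and the difference of Fcgr1 did not pass the test. Across all genes tested, 850 of 6726 (12.6%) passed at an adjusted p below 0.05 (edgeR quasi-likelihood test with the mouse as a block, Benjamini-Hochberg adjustment), 458 of them (6.81%) higher and 392 (5.83%) lower in the C1qa range. Of the 6 genes, 5 passed, all higher. With C1qa high at 20 per 10000, 2335 of 6893 genes (33.9%) passed, 1107 (16.1%) higher and 1228 (17.8%) lower, and again 5 of the 6 genes were among these, with Fcgr1 in place of Fcer1g. The median log2 fold change of all genes was 0.11 in the first fit and 0.01 in the second.

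**Figure D1:**
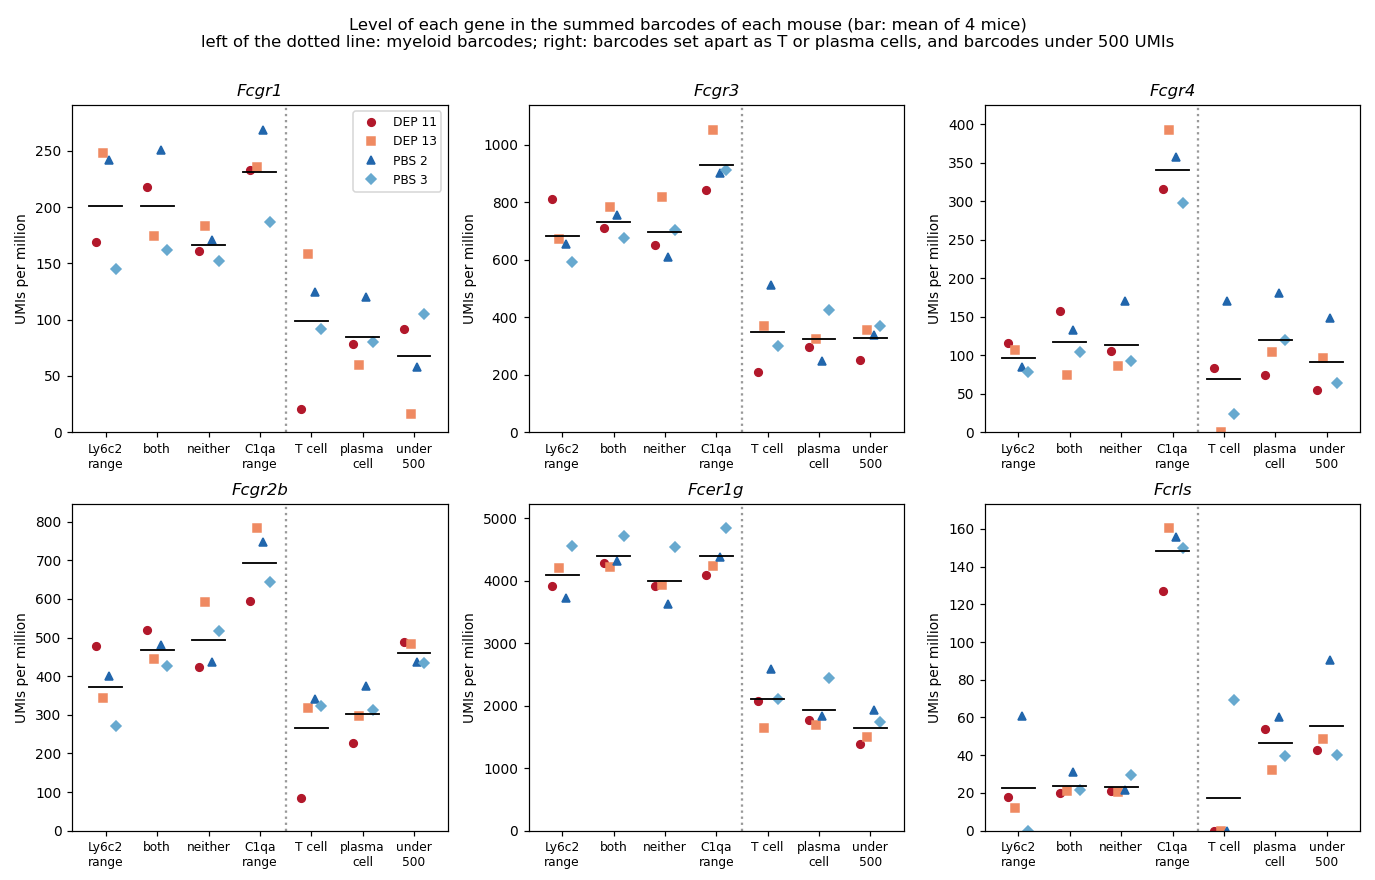
Level of each of the 6 genes, in CPM, in the summed barcodes of each mouse (points) with the mean of 4 mice (bar), for the 4 ranges of myeloid barcodes and, right of the dotted line, for barcodes set apart as T or plasma cells and barcodes under 500 UMIs. Each y axis starts at 0 and has its own scale, and Fcgr4 and Fcrls stand above their background only in the C1qa range.

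Fcgr4, an activating receptor that binds mouse IgG2a and IgG2b, was at 116 CPM (DEP 11), 106 (DEP 13), 84.8 (PBS 2) and 77.5 (PBS 3) in the Ly6c2 range. These levels rested on 26, 9, 7 and 8 UMIs. In the C1qa range the same mice had 316, 393, 357 and 298 CPM. Every mouse was higher in the C1qa range, and the groups of values did not overlap. The log2 fold change of Fcgr4 was 1.83 (SE 0.18, adjusted p = 2.917e-21), and 1.87 with the higher limit for C1qa. The mean in the Ly6c2 range, 96.1 ± 18.0 (SD, n = 4), lay within the background, which was 69.4 ± 76.3 in barcodes set apart as T cells, 120 ± 44.5 in plasma cells and 91.0 ± 42.0 under 500 UMIs. The level of Fcgr4 in the Ly6c2 range was thus not above that of the barcodes used as background. These barcodes held more C1qa than the Ly6c2 range, which was picked for little C1qa, so they may not match its free RNA. How much of the Fcgr4 level in this range was free RNA was not tested.

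Fcrls had 17.8, 11.8, 60.6 and 0.0 CPM in the Ly6c2 range, from 10 UMIs in all, against 127, 160, 155 and 150 in the C1qa range. The 0 in PBS 3 allows a level of up to 29.1 CPM, from counting error alone. The C1qa range was higher in 4 of 4 mice. Its log2 fold change was the largest of the 6 genes, at 2.91 (SE 0.33, adjusted p = 2.015e-16), and 2.99 with the higher limit for C1qa. Plasma cell barcodes had 46.4 ± 12.7 CPM of Fcrls (SD, n = 4) and barcodes under 500 UMIs had 55.4 ± 23.5, both above the mean of the Ly6c2 range (22.5 ± 26.4). Barcodes set apart as T cells had 0 UMIs of Fcrls in 3 mice and 69.0 CPM in PBS 3, a mean of 17.3 ± 34.5, so that the Ly6c2 range lay within the span of the backgrounds.

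Fcgr2b, the only inhibitory receptor of the family, had 477, 342, 400 and 271 CPM in the Ly6c2 range of DEP 11, DEP 13, PBS 2 and PBS 3, and 596, 783, 747 and 645 in the C1qa range. It rose in each mouse, by 0.90 on the log2 scale (SE 0.12, adjusted p = 1.686e-12), and by 0.76 with the higher limit for C1qa. The mean of the Ly6c2 range, 373 ± 87.2, was below that of barcodes under 500 UMIs, 461 ± 29.6, and near those of T cell (266 ± 122) and plasma cell barcodes (303 ± 60.9). The barcodes high in both genes or in neither had means of 468 ± 41.1 and 493 ± 77.4, near the highest background, and the C1qa range stood above all of these at 693 ± 87.4.

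Fcgr3, the low-affinity activating receptor, was well above background in both ranges. It had 811, 673, 654 and 591 CPM in the Ly6c2 range and 844, 1053, 902 and 912 in the C1qa range, against means of 323 to 348 in the T cell, plasma cell and low-UMI barcodes. The difference was small in DEP 11 and larger in the other 3 mice. The log2 fold change was 0.50 (SE 0.10, adjusted p = 1.818e-05), and 0.43 with the higher limit for C1qa. Fcgr3 is also a receptor of natural killer cells. The 6 genes listed for those cells summed to 8.91 to 24.2 CPM in the Ly6c2 range, with 4 of them at 0, and to 49.5 to 78.3 in the C1qa range, where the cytotoxic gene Prf1 was at 0. The part of these cells in the level of Fcgr3 was not tested.

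Fcgr1, the high-affinity receptor, had 169, 248, 242 and 145 CPM in the Ly6c2 range and 233, 235, 269 and 187 in the C1qa range. DEP 13 was slightly lower in the C1qa range and the other 3 mice were higher. The log2 fold change of 0.35 (SE 0.17) did not pass the test (adjusted p = 0.1786). With the higher limit for C1qa, the change of 0.28 (SE 0.08) did pass (adjusted p = 0.007994), so that the call depended on the limit. Ly6C, the protein of the gene that sets the Ly6c2 range, was the other sort marker. Cells without it could enter the gate only through CD64, the protein of Fcgr1. The part of the sort in this difference was not tested. The Ly6c2 range was above the background of 67.5 to 98.9, since T cell, plasma cell and low-UMI barcodes had means of 98.9 ± 58.7, 84.6 ± 25.4 and 67.5 ± 39.6. Among the 88 barcodes with 20 or more Ly6c2 UMIs per 10000, Fcgr1 reached 297, 385 and 389 CPM in DEP 11, DEP 13 and PBS 2 and 150 in PBS 3, from 12 to 66 UMIs per mouse. Between 5 and 20 per 10000, the levels were 184, 177, 223 and 159, so that 3 of the 4 mice were higher in the barcodes richest in Ly6c2.

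Fcer1g, the chain shared by the activating receptors, had a UMI in 96.2% ± 2.75 of thinned barcodes (1000 UMIs each) of the Ly6c2 range and 97.2% ± 0.782 of those of the C1qa range, but also in 83.4% ± 12.45 of T cell and 88.7% ± 3.001 of plasma cell barcodes (SD, n = 4), so that its detection separated these barcodes poorly. Its level was 3917, 4201, 3718 and 4554 CPM in the Ly6c2 range and 4094, 4237, 4388 and 4846 in the C1qa range. The log2 fold change of 0.20 (SE 0.07) passed narrowly (adjusted p = 0.03236). It was 0.05 (adjusted p = 0.3828) with the higher limit for C1qa, and it also missed the threshold without PBS 2 (adjusted p = 0.1838) and without PBS 3 (adjusted p = 0.1509). Barcodes set apart also held much Fcer1g, at 2105 ± 391 CPM in T cell barcodes and 1937 ± 341 in plasma cell barcodes, yet both were lower than the myeloid ranges. Whether this was free RNA or RNA of a myeloid cell in the same droplet was not tested. Mast cells and basophils use the same chain in their IgE receptor, and 0 of 7 of their markers, among them Fcer1a and Ms4a2, had a UMI in the myeloid barcodes.

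The share of barcodes with a UMI showed where along C1qa the change lay. Each barcode was first thinned at random to 1000 UMIs, because barcodes of the C1qa range were deeper (median 6316 UMIs against 4315). Fcgr4 was found in 26.9% to 30.9% of thinned barcodes with 20 or more C1qa UMIs per 10000, and in 10.6% to 13.7% of those with 5 to 20. Thinned barcodes set apart as T cells held Fcgr4 in 10.5% ± 8.54 and plasma cells in 8.80% ± 1.13 (SD, n = 4), so that the middle bin was near background. Fcrls had the same step, from 1.83% to 4.29% in the middle bin to 13.2% to 16.03% in the top bin. Fcgr2b went from 37.1% to 42.9% in the middle bin to 45.2% to 55.0% in the top bin, also without overlap between mice. Fcgr3 likewise went from 45.4% to 49.5% to 53.7% to 64.9% without overlap, and plasma cell barcodes held it in 30.8% to 46.0%. The background shares were 3.09% ± 2.53 in plasma cell barcodes for Fcrls, and 10.01% ± 7.39 in T cell and 31.3% ± 5.53 in plasma cell barcodes for Fcgr2b. The middle bin of Fcgr2b was far above the T cell share and only somewhat above the plasma cell share, so the backgrounds differed for this gene. For Fcgr1 the bins overlapped, at 12.9% to 22.9% and 18.6% to 23.8%.

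**Figure D2:**
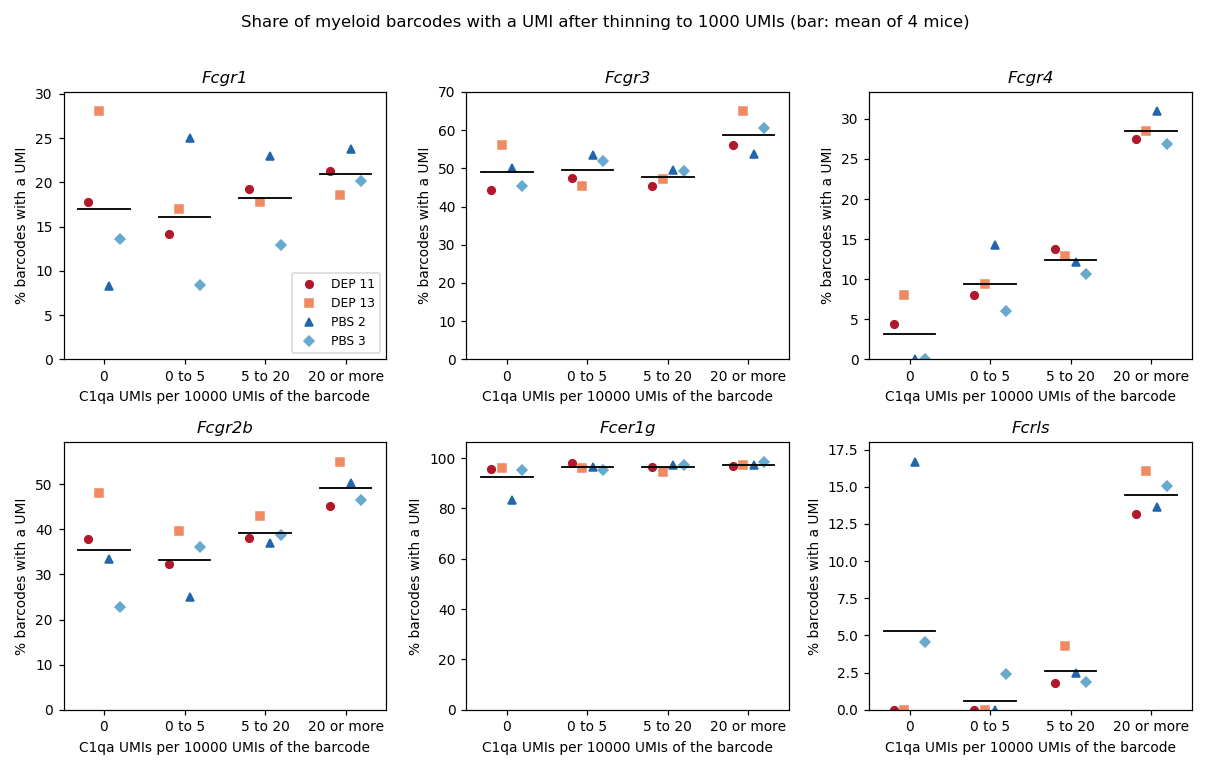
Share of myeloid barcodes with at least 1 UMI of each gene after thinning to 1000 UMIs (y axis, percent, from 0), by C1qa UMIs per 10000 UMIs of the barcode (x axis), for each mouse (points) with the mean of 4 mice (bar). Fcgr4 and Fcrls step up at 20 or more, and the bin at 0 holds only 12 to 45 barcodes per mouse.

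Between the ranges, the thinned share of Fcgr4 differed by 14.7 percentage points ± 3.92 (SD of the 4 mice), from 9.97% to 24.7%. The difference was 9.94 points ± 3.57 for Fcrls and 23.4 ± 11.4 for Fcgr2b. For Fcgr1 (-1.08 ± 5.35), Fcgr3 (9.14 ± 16.6) and Fcer1g (0.917 ± 3.06), the difference was smaller than its spread between mice. At the higher limit for C1qa, the difference was 18.6 ± 2.17 for Fcgr4, 12.8 ± 1.37 for Fcrls and 19.2 ± 8.14 for Fcgr2b. Fcgr3 then differed by 13.2 ± 7.49, with the C1qa range higher in 4 of 4 mice, which was more than its spread. Fcgr1 (2.06 ± 3.07) and Fcer1g (-0.055 ± 2.63) again differed by less. Without thinning, at the first limit, the differences were 35.3 points for Fcgr4, 28.0 for Fcrls, 23.7 for Fcgr2b and 14.8 for Fcgr1. For Fcgr3 and Fcer1g the unthinned differences were -0.37 each, so that the difference changed sign without thinning for Fcgr1, Fcgr3 and Fcer1g.

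The balance of activating to inhibitory receptors was taken as the UMIs of Fcgr1, Fcgr3 and Fcgr4 over those of Fcgr2b. It was 2.30, 3.0, 2.45 and 3.0 in the Ly6c2 range of DEP 11, DEP 13, PBS 2 and PBS 3 and 2.34, 2.15, 2.05 and 2.17 in the C1qa range. The ratio was lower in the C1qa range in 3 of 4 mice, with geometric means of 2.67 and 2.17, a log2 difference of -0.30 that did not pass a two-sided exact sign-flip permutation test (p = 0.25, the smallest possible being 0.125). With the higher limit for C1qa the log2 difference was -0.11 (exact permutation p = 0.375). In the Ly6c2 range, as given above, Fcgr4 lay within its backgrounds. Fcgr2b lay above its T and plasma cell means but below that of barcodes under 500 UMIs. The ratio there may thus hold free RNA in both its parts, and how much of the difference this makes up was not tested. The parts of the sum differed in direction. Over Fcgr2b alone, Fcgr3 was lower in the C1qa range by a log2 difference of -0.47 (exact permutation p = 0.125) and Fcgr1 by -0.69 (exact permutation p = 0.25), whereas Fcgr4 was higher by 0.92 (exact permutation p = 0.125). With 4 mice this exact test cannot go below 0.125, so it could not pass 0.05 for any of these ratios.

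**Figure D3:**
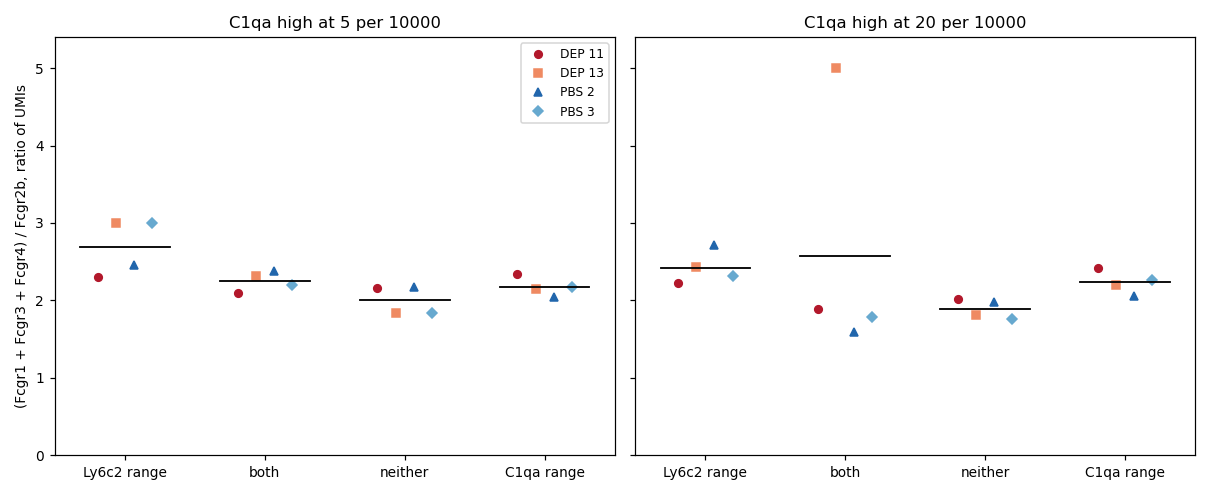
UMIs of Fcgr1, Fcgr3 and Fcgr4 over UMIs of Fcgr2b (y axis, a ratio, from 0) in the 4 ranges for each mouse (points) with the mean of 4 mice (bar), at the first limit for C1qa (left) and at the higher limit (right). The ratios of the C1qa range lie between 2.05 and 2.42 in both panels, and the single value of 5.0 rests on 2 barcodes of DEP 13.

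Other genes that act with these receptors were counted from lists. Of 12 further immunoglobulin receptors only Fcgrt, the neonatal Fc receptor that recycles IgG, was expressed highly enough to test. It had 23.6 to 58.1 CPM in the Ly6c2 range and 147 to 174 in the C1qa range, a log2 fold change of 1.78 (SE 0.26, adjusted p = 3.713e-10), and of 1.63 at the higher limit. Fcgrt thus rose with Fcgr4, Fcgr2b and Fcrls.

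Fcer1g also serves receptors other than those for IgG, and Tyrobp (DAP12) is a second chain with the same kind of motif. Of 17 genes for Tyrobp and receptors that pair with either chain, 12 were tested, and 3 were higher in the C1qa range, 5 lower and 4 did not pass, where 6.81% and 5.83% of all genes tested were higher and lower. Their median log2 fold change was -0.62, against 0.11 over all genes. Among those that rose were Clec4n (Dectin-2), with a log2 fold change of 2.35 from 98.5 ± 28.3 to 450 ± 56.2 CPM, and Lilra5, at 3.19. Among those that fell were Clec4e (Mincle), by 1.90 on the log2 scale, and Sirpb1a, by 1.29. Tyrobp fell by 0.37 on the log2 scale (SE 0.07, adjusted p = 4.047e-06), from 4345 ± 579 to 3111 ± 240 CPM. At the higher limit 5 of the 12 were higher and 7 lower, where 16.1% and 17.8% of all genes were. The log2 fold changes were then 1.89 for Clec4n, 2.88 for Lilra5, -2.89 for Clec4e, -1.77 for Sirpb1a and -0.54 for Tyrobp.

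Of the 40 listed signalling genes below the activating receptors, 33 were tested, 0 were higher and 1 was lower, Prkcd, with a log2 fold change of -0.67 (adjusted p = 0.0002208), against 6.81% higher and 5.83% lower among all genes. The median of the 33 was 0.10, near that of all genes. Of 23 inhibitory genes 19 were tested, of which 1 was higher, 2 were lower and 16 did not pass. Lair1, an inhibitory collagen receptor, rose by a log2 fold change of 1.93, and Pirb and Ptpn6, which encodes the phosphatase SHP-1, fell by 0.62 and 0.46 on the log2 scale. At the higher limit, 6 of the 33 activating genes were higher and 9 lower, and 4 of the 19 inhibitory genes were higher and 6 lower, where 16.1% and 17.8% of all genes were. Prkcd was then at -0.70, Lair1 at 1.80, Pirb at -0.79 and Ptpn6 at -0.56 on the log2 scale.

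The second comparison asked whether the receptors differed between DEP and PBS mice. Over all myeloid barcodes, 0 of 6567 genes (0.0%) passed the edgeR test, and so none of the 6 did, with 181 genes at an unadjusted p below 0.05 and 4 genes called by DESeq2. The levels of Fcgr1 were 226 and 229 CPM after DEP and 266 and 183 after PBS. Fcgr4 had 286 and 349 against 331 and 275, and Fcgr2b had 576 and 743 against 715 and 621. For these 3 genes, and for Fcgr3 (823 and 1015 against 883 and 885) and Fcrls (109 and 140 against 141 and 135), the groups overlapped. Fcer1g was lower in both DEP mice, at 4092 and 4213 against 4368 and 4823, with a log2 fold change of -0.15 (SE 0.14, adjusted p = 0.9994). With a mouse left out, it ran from -0.26 (without PBS 2) to -0.03 (without PBS 3). The fold changes of the other genes lay between -0.14 for Fcrls and 0.08 for Fcgr4, with SEs of 0.17 to 0.18. With 2 mice per group, differences clearly larger than these errors could also fail to pass after adjustment over 6567 genes.

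**Figure D4:**
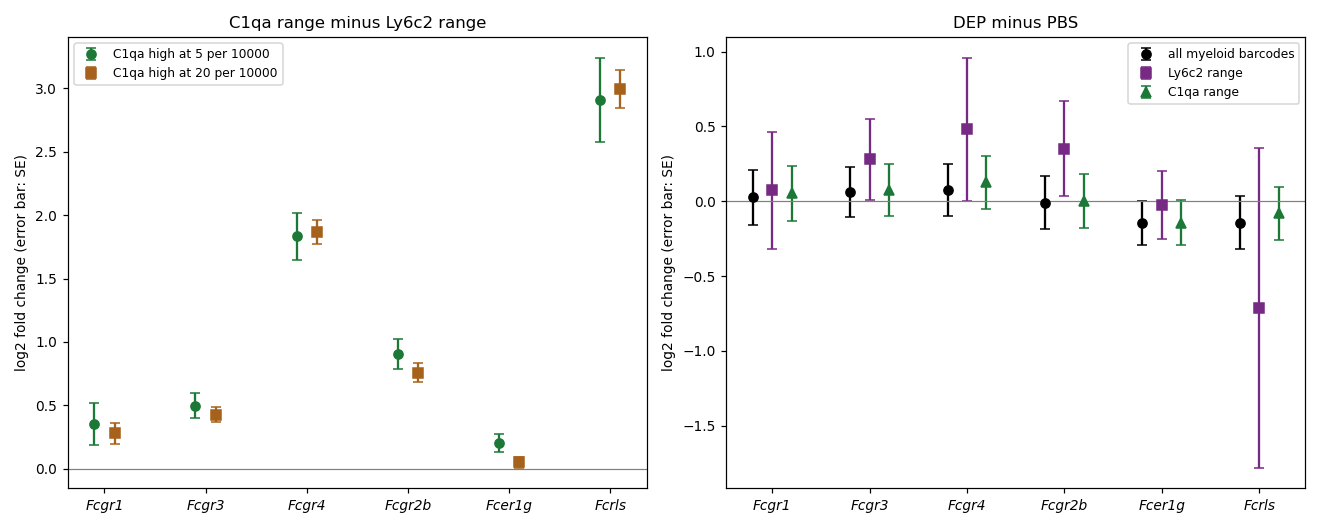
Log2 fold change with its SE for each gene from the edgeR fits, left for the C1qa range minus the Ly6c2 range at both limits for C1qa and right for DEP minus PBS in all myeloid barcodes, the Ly6c2 range and the C1qa range. No gene on the right passed the test, and the widest bar, for Fcrls in the Ly6c2 range, is at -0.71 with an SE of 1.07 and changes sign when PBS 2 is left out.

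Within the Ly6c2 range, 2 of 5356 genes (0.0373%) passed, the chemokines Ccl4 and Cxcl10, both lower in DEP, with 217 genes at an unadjusted p below 0.05. These 2 genes were named after their values were seen. Cxcl10 rested on 86 UMIs in 2 barcodes of PBS 2, against 5 to 9 UMIs in each other mouse, and 0 genes passed at limits of 2 or 10 per 10000, at the higher limit for C1qa or with DESeq2. None of the 6 receptor genes passed. Fcgr3 (811 and 673 against 654 and 591 CPM) and Fcgr4 (116 and 106 against 84.8 and 77.5) were higher in both DEP mice, with log2 fold changes of 0.28 (SE 0.27) and 0.48 (SE 0.48) and adjusted p = 0.9964 for each. With the higher limit for C1qa, the levels of Fcgr4 in this range were 108 and 84.0 in DEP against 112 and 98.8 in PBS, so the order was not kept, and the log2 fold changes were 0.08 for Fcgr3, -0.09 for Fcgr4, 0.16 for Fcgr2b and -0.05 for Fcgr1. At the first limit Fcgr2b had a log2 fold change of 0.35 (SE 0.32) and Fcgr1 of 0.07 (SE 0.39). With a mouse left out, that of Fcgr2b ran from 0.06 (without DEP 11) to 0.61 (without PBS 2), that of Fcgr3 from 0.13 (without DEP 11) to 0.40 (without DEP 13), and that of Fcgr1 from -0.25 (without PBS 3) to 0.41 (without PBS 2). That of Fcrls, -0.71 (SE 1.07), rested on single mice: it was -1.81 without PBS 3 and 4.23 without PBS 2, where the PBS mouse that remained had 0 UMIs, so that the latter gives no bound.

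Within the C1qa range, 0 of 6761 genes (0.0%) passed, with 220 at an unadjusted p below 0.05 and 7 called by DESeq2. With the higher limit for C1qa, 1 of 7033 (0.0142%) passed, which was none of the 6. The fold changes of the 6 genes lay between -0.14 for Fcer1g and 0.13 for Fcgr4 on the log2 scale, with SEs of 0.15 to 0.18. Without DEP 11, those of Fcgr4, Fcgr2b, Fcgr3 and Fcrls were 0.30, 0.20, 0.24 and 0.10. Without DEP 13, they were -0.07, -0.25, -0.13 and -0.29. That of Fcgr1 ran from -0.16 (without PBS 3) to 0.29 (without PBS 2), and that of Fcer1g stayed negative. A test of whether the DEP difference itself differed between the ranges called 4 of 6726 genes (0.0595%) and none of the 6. At the higher limit it called 9 of 6893 (0.131%), 7 of them (0.102%) with a higher difference in the C1qa range and 2 (0.029%) with a lower, and again none of the 6. Of the 6, Fcgr2b came nearest at the first limit, with an interaction of -0.49 (SE 0.25, adjusted p = 1.0). Its direction depended on the DEP mice, at 0.20 without DEP 11 and -0.86 without DEP 13. The ratio of activating to inhibitory receptors over all myeloid barcodes was 2.31 and 2.14 after DEP and 2.07 and 2.16 after PBS, and the log2 difference of 0.07 did not pass an exact permutation test (p = 0.667, the smallest possible being 0.333).

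In the lists of partner and signalling genes, 0 genes passed between DEP and PBS in any range. The smallest unadjusted p among the partner receptors was that of Clec4e, with a log2 fold change of -0.63 in the C1qa range (adjusted p = 0.9277). It had 40.9 and 37.9 CPM after DEP and 72.6 and 50.4 after PBS. Fgr, a Src-family kinase below the receptors, had a log2 fold change of 1.38 in the Ly6c2 range (adjusted p = 0.9964).

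Plasma cell genes were found at a low level in the myeloid barcodes of every mouse, and the groups overlapped. The 6 listed genes summed to 534 and 817 CPM in the myeloid barcodes of the DEP mice and to 354 and 1232 in those of the PBS group. PBS 3, with the highest sum, also had the highest level of Fcer1g and the lowest of Fcgr1 and Fcgr4. The part of this difference in their levels was not tested.

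Over the 16 sums of 4 ranges in 4 mice, the receptors followed one another to different degrees. Pearson's r was 0.88 between Fcgr2b and Fcgr3, 0.86 between Fcgr2b and Fcrls, 0.77 between Fcgr2b and Fcgr4 and 0.74 between Fcgr4 and Fcrls. Fcer1g was not close to any of the other 5 genes (r of -0.12 to 0.23). The genes closest to Fcgr4 were Cxcl16 (r = 0.97), Apoe (0.95) and H2-M2 (0.94), and those closest to Fcgr2b were the MHC class II genes Cd74 (0.92), H2-Aa (0.90) and H2-Eb1 (0.89). Closest to Fcrls were Ctsc (0.92), Mtss1 (0.90) and Pmepa1 (0.88). Next to Fcgr2b, those closest to Fcgr3 were Hs2st1 (0.88) and Gm19434 (0.86). Fcgr1 was closest to Glb1 (0.81), Map1lc3a (0.78) and Rnf19b (0.78), and Fcer1g to Eloc (0.86), Gm8797 (0.82) and Topors (0.81). Sums of a mouse share its library and the sums of a range share the definition by Ly6c2 and C1qa, so these values are a description and carry no p.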

How the data were processed

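Colon lamina propria cells of 2 DEP and 2 PBS mice were measured as single cells. The deposited table holds raw UMI counts per gene and barcode, which per the labels the authors made with Cell Ranger. The submitters' processing notes also name STAR 2.6.1a, R 3.5.1 and the build mm10, without a Cell Ranger version. Barcodes under 1000 UMIs were left out (except as background), as were barcodes with 3 or more UMIs from at least 2 marker genes of T, B or plasma cells and no fewer than from 7 myeloid genes. Called doublets (scanpy 1.11.5) were kept and removed in an alternative. UMI counts were summed per mouse, and per mouse and range, and tested with edgeR 4.0.16 (TMM, quasi-likelihood) over genes above 1 CPM in 2 or more sums that also had a UMI in 5% or more of barcodes. Ranges were compared with the mouse as a block, since both ranges came from the same animal. DESeq2 1.42.0, thinning to 1000 UMIs, other limits and leaving out each mouse were alternatives. The tests were tested on simulated data. Gene positions came from GENCODE and upstream sequences from RefSeq, in which all 6 genes matched. The members and lists were chosen with earlier results of these data known. Named in the text were the 6 genes, the 3 genes with the highest r to a member, and, of each list, up to 3 passing genes in each direction by smallest p or, with none passing, the gene of smallest p. Intervals and limits cover counting error only.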

Additional observations from a re-analysis of the deposited data

Results flagged for a closer look

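The DEP difference itself differed between the Ly6c2 and C1qa ranges for 4 genes, none of them an Fc receptor gene, by the interaction term of the edgeR fit: Cxcl10 (adjusted p = 1.046e-09), Ccl4 (adjusted p = 8.835e-10), Ccl3 (adjusted p = 0.0006812) and Rsad2 (adjusted p = 0.0006812). In the Ly6c2 range, Cxcl10 had 86 UMIs in PBS 2, from 2 of its 16 barcodes, and 5 to 9 UMIs in each other mouse. Rsad2 had 28 UMIs in 3 barcodes of PBS 2, 2 UMIs in PBS 3 and 0 in both DEP mice. Ccl4 had 401 and 165 CPM in the DEP mice and 1865 and 591 in PBS 2 and PBS 3 in the Ly6c2 range, against 1011, 1274, 1430 and 1141 in the C1qa range. Ccl3 had 472, 590, 1804 and 911 in the Ly6c2 range and 651, 700.0, 939 and 715 in the C1qa range. PBS 2 was highest for each of the 4 genes in the Ly6c2 range, and without PBS 2 the number of genes called was 1.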

How the results depend on the processing

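Between the ranges, Fcgr4, Fcrls, Fcgr2b and Fcgr3 passed the test in 21 of 21 alternatives, with log2 fold changes of 1.69 to 2.39, 2.46 to 4.18, 0.69 to 1.32 and 0.38 to 0.79. Fcer1g passed in 8 (0.04 to 0.52) and Fcgr1 in 5 (0.20 to 0.52), and no called value changed sign. Between DEP and PBS, 0 of the 6 genes passed in any alternative, and the sign of a value that did not pass changed in 12 of 78 values over all myeloid barcodes, 21 of 114 in the Ly6c2 range, 21 of 114 in the C1qa range and 27 of 114 for the difference between ranges. With no replicate block, 657 genes differed between the ranges and Fcer1g did not (adjusted p = 0.3391). The DEP and PBS mice share no replicate numbers, so no block was possible between them. The count between the ranges was 480 with genes high at 2 per 10000, 2335 with C1qa high at 20 per 10000, 251 after thinning (1978 genes tested), 535 with DESeq2, whose independent filter left 2087 genes without an adjusted p, and 533 to 660 with a mouse left out (533 without DEP 11).

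Between DEP and PBS over all myeloid barcodes, the count was 4 with DESeq2, 75 with no gene filter and 0 to 14 with a mouse left out (14 without DEP 13, 9 without DEP 11, 7 without PBS 2). In the Ly6c2 range it was 5 with barcodes from 500 UMIs, 5 with T, B and plasma cell barcodes kept, 0 with genes high at 2 or at 10 per 10000 or with C1qa high at 20, 4 with DESeq2 size factors, 0 with the DESeq2 test, 6 with no gene filter and 7 to 11 with a mouse left out (4 to 13 at the higher limit for C1qa). In the C1qa range it was 1 from 2000 UMIs, 2 with the study's barcode filters, 2 without doublets, 1 with C1qa high at 20 (Apol7a, named after its value was seen), 7 with DESeq2, 76 with no gene filter and 21 to 90 with a mouse left out (12 to 26 at the higher limit). For the difference between ranges it was 8 with lymphoid barcodes kept, 1 and 2 with genes high at 2 and 10 per 10000, 9 with C1qa high at 20, 0 with DESeq2 and 1 to 7 with a mouse left out (4 to 36 at the higher limit). The cause was not tested. A fit that leaves out a mouse has 1 mouse in a group, which is assumed to vary like the others. The ratio between the ranges turned from a log2 difference of -0.30 to 0.92 with Fcgr4 as its only activating receptor. Without thinning, the shares differed by 14.8 points for Fcgr1, 35.3 for Fcgr4 and 28.0 for Fcrls, and the difference turned sign for Fcgr1 (from -1.08), Fcgr3 (from 9.14 to -0.37) and Fcer1g (from 0.917 to -0.37). The Ly6c2 range, with 16 to 50 barcodes per mouse, sets the precision of every value that rests on it.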
